A study of Mus musculus with 7 samples.

Results

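Interferon-stimulated genes are the genes that a cell switches on when it senses an interferon or foreign nucleic acid. A list of 38 mouse genes of this kind was followed across all 7 arrays of a study of Nanog, a transcription factor that supports the undifferentiated state. Members were taken by the gene symbol of the platform annotation on probe sets that carry 1 symbol, and 34 of the 38 were found among the 22180 genes measured that way. Gbp2, Oas1a, Dtx3l and Ifi44 have no such probe set in the annotation used and were not analysed here.

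The arrays held 2 samples of Nanog knockout (KO) induced pluripotent stem cells (iPSC), 1 of embryonic stem cells (ESC) that are wild type (WT), 2 of WT iPSC, 1 of Nanog KO mouse embryonic fibroblasts (MEF) and 1 of WT MEF. iPSC are somatic cells brought back to an ESC-like state, and MEF are fibroblasts grown from embryos. All samples are labelled with the strain 129, no interferon or other stimulus is named for any of them, and the growth protocol names ESC medium, 2i/LIF medium and MEF medium without tying a medium to a sample, so medium and group cannot be told apart. The labels call the iPSC replicates biological without saying whether they are separate lines, so p-values cover only the spread between these samples, and the way Nanog was inactivated, any feeder cells and the number of embryos behind each MEF sample are not given in the sources used here.

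In the canonical pathway, type I interferons bind a receptor made of IFNAR1 and IFNAR2, whose kinases JAK1 and TYK2 phosphorylate STAT2. STAT2 and IRF9 act in a complex that binds a DNA motif called the interferon-stimulated response element (ISRE), whereas interferon gamma acts at gamma-activated sites (GAS) and through IRF1. Pluripotent cells are known for a weak interferon response compared with fibroblasts and other differentiated cells.

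Promoter sequences were to be shown for members called between pluripotent groups (adjusted p under 0.05, below) that were found to hold the ISRE motif. These were the 2 immunity-related GTPases Irgm2 and Igtp, so their ISRE matches were part of the choice. Oasl2, Parp14, Cmpk2 and Xaf1 were called too but were not found to hold it and are not shown. Also shown are Irgm1, a relative of Irgm2 and Igtp that did not move with them, and Irf1, the member with the largest difference between KO and WT iPSC. Irgm1 and Irf1 were added after their values were seen. Each run is the 110 bases before the annotated start of the gene in RefSeq (assembly GRCm38.p6, which is of the strain C57BL/6J and not 129), 5′ to 3′ on the gene's strand, and capitals mark matches on either strand to the ISRE motif (GAAA, 2 bases of any kind, GAAA) or the GAS motif TTCNNNGAA.
Irgm2 (chr11:58214867-58214976, plus strand): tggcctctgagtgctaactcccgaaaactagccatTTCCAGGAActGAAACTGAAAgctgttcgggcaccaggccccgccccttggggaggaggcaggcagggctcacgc
Igtp (chr11:58199446-58199555, plus strand): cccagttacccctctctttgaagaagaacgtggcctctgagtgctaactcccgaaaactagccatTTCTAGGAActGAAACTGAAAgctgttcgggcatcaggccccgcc
Irgm1 (chr11:48871421-48871530, minus strand): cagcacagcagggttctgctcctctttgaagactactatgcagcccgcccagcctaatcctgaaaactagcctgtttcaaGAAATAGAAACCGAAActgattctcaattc
Irf1 (chr11:53769904-53770013, plus strand): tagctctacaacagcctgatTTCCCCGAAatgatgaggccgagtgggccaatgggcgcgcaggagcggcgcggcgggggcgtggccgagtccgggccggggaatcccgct

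The upstream stretches of Irgm2 and Igtp, lined up at their ISRE with an offset of 30 bases, were identical at 78 of 80 bases (97.5%), and in both a GAS match lies directly before the ISRE match. Irgm1 holds 2 overlapping ISRE matches and no GAS match in its 250 bases, and the Irf1 promoter shown holds a GAS match and no ISRE match. Of the 34 members, 26 had a promoter entry, and 11 of these 26 (42.3%) held the ISRE letters within 250 bases before a start, against 936 of 27025 genes in the table (3.46%). The 11 were Bst2, Gbp3, Ifit1, Ifit3, Igtp, Irgm1, Irgm2, Isg15, Oas3, Rsad2 and Stat2. For the GAS letters the shares were 6 of 26 members (23.1%) and 2197 of 27025 genes (8.13%). These matches describe letters in a window and do not show binding.

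Nanog stood at a log2 intensity of 7.5 and 7.44 in KO iPSC, against 12.73 in WT ESC and 12.84 and 12.76 in WT iPSC, and at 6.42 in KO MEF and 6.53 in WT MEF. Background was gauged on each array by 1394 receptor genes of the olfactory and vomeronasal families, whose 95th percentile (the yardstick) lay between 6.30 and 6.50. Pluripotency markers followed the labels, with 15 or 16 of 16 above the yardstick on each ESC and iPSC array and 6 and 5 on the KO and WT MEF arrays. One WT iPSC array carried far more fibroblast signal than the other, with a median of 9.54 (replicate 1) against 7.61 (replicate 2) over 21 fibroblast markers, and WT ESC stood at 8.55, KO iPSC at 7.22 and 7.08, KO MEF at 12.30 and WT MEF at 11.86. The 2 WT iPSC arrays differed by over 2-fold in 350 genes and the 2 KO iPSC arrays in 4, and Stat2 was the only member among the 350. In samples of many cells, fewer cells of a type and less RNA per cell cannot be told apart.

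Many members lay near or below background. Of the 34 genes, 17 lay above the yardstick on all 7 arrays, 12 on some, and 5 (the GTPases Mx1 and Mx2, the ubiquitin-like modifier Isg15, the guanylate-binding protein Gbp3 and the immunoproteasome subunit Psmb9) on none. The brightest were Trim25, an E3 ligase that acts on the RNA sensor RIG-I, at up to 10.79, Xaf1, an antagonist of the apoptosis inhibitor XIAP, at up to 10.51, and Ddx58, which encodes RIG-I itself, at up to 9.97. In KO MEF 28 members (82.4%) lay above the yardstick, in WT ESC 25 (73.5%), and on the other arrays between 19 and 22 (55.9% to 64.7%), where all genes gave 61.0% to 63.7%. The median member level was 7.11 in KO MEF and 6.93 in WT ESC and lay between 6.56 and 6.72 on the remaining arrays.

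**Figure D1:**
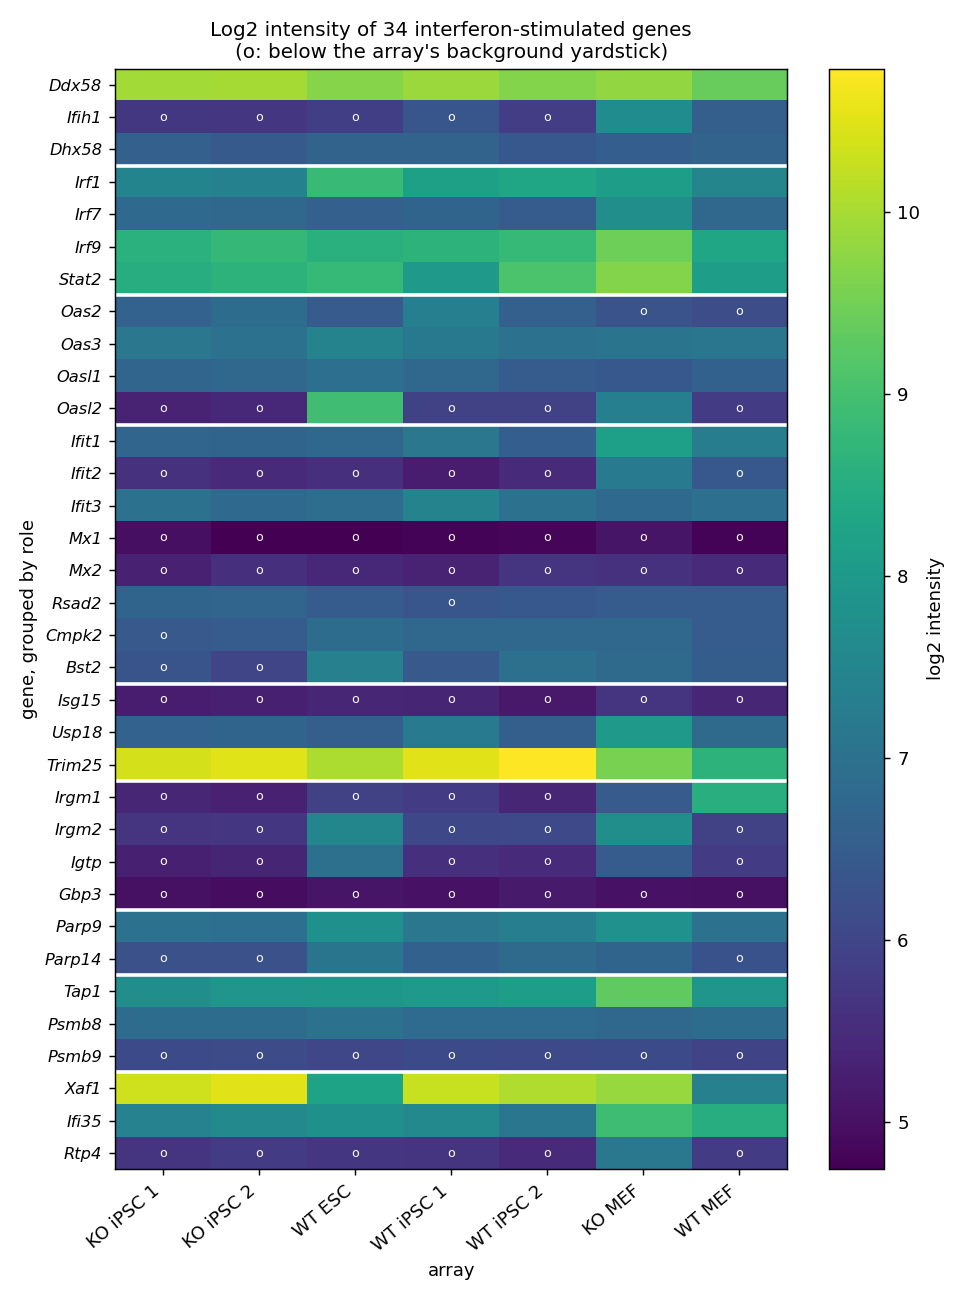
Log2 intensity (colour) of the 34 interferon-stimulated genes (rows, grouped by role) on the 7 arrays (columns), with o where a gene lies below that array's background yardstick of 6.30 to 6.50. The KO MEF column has the fewest marks, and Mx1, Mx2, Isg15, Gbp3 and Psmb9 are marked on all 7 arrays.

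Whether loss of Nanog goes with a different interferon programme in pluripotent cells was asked by setting the 2 KO iPSC arrays against the 3 WT pluripotent arrays (ESC and iPSC). Few members moved. In limma, with p-values adjusted over all 22180 genes and a threshold of 0.05, 0 members were higher and 3 lower (Irf1, Parp14 and Cmpk2), which is 8.82% of the members, whereas 8.81% of all genes were lower and 6.89% higher (15.7% in all). The share of members that fell is close to that of all genes. Their median log2 difference was -0.06, against 0.03 for all genes, and 11 of 34 lay above 0 (32.4%, with 56.4% of all genes above 0). The 31 members not called ran from a fitted -1.53 for Oasl2 (SE 0.94) to 0.89 for Xaf1 (SE 0.61). In both of these genes WT ESC lay far from WT iPSC, which widens the spread of the pooled WT group.

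Irf1, a transcription factor strongly induced by interferon gamma, stood at 7.47 and 7.41 in KO iPSC, against 8.85 in WT ESC and 8.18 and 8.32 in WT iPSC. Both KO arrays lay below every WT array, and WT ESC was the highest of all. The fold was 2.02 lower in KO iPSC (log2 -1.01, SE 0.20, adjusted p = 0.027). Against WT iPSC alone it was 1.76-fold lower (log2 -0.81, SE 0.09, adjusted p = 0.0074).

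Parp14, a mono-ADP-ribosyltransferase, stood at 6.25 and 6.23 in KO iPSC, against 7.10 in WT ESC and 6.61 and 6.84 in WT iPSC. It was below background in both KO arrays and above it in the 3 WT arrays, a fall of at least 1.3-fold (fitted log2 -0.61, SE 0.15, adjusted p = 0.0483), where "at least" sets the bright group against the yardstick of the dim arrays. Against WT iPSC alone the fall was at least 1.19-fold (fitted log2 -0.48, SE 0.11, adjusted p = 0.0442).

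Cmpk2, a mitochondrial nucleotide kinase, stood at 6.42 and 6.49 in KO iPSC, against 6.87 in WT ESC and 6.77 and 6.76 in WT iPSC. These levels straddle or just exceed the yardstick, and the groups do not overlap (1.27-fold lower, log2 -0.34, SE 0.08, adjusted p = 0.0435). With only WT iPSC on the other side the adjusted p was 0.073 for a log2 difference of -0.31.

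Within iPSC, KO against WT in a fit of all 7 arrays, 0 members were higher and 4 lower (11.8%, with 6.93% of all genes higher and 9.55% lower, 16.5% in all). Beside Irf1 and Parp14 these were Oasl2, a member of the oligoadenylate synthetase-like family, and Irgm2. Oasl2 stood at 5.35 and 5.43 in KO iPSC, against 5.93 and 5.90 in WT iPSC, and Irgm2 at 5.67 and 5.70 in KO iPSC, against 6.04 and 6.07 in WT iPSC. All 8 of these values lie below background, so no fold is given (fitted log2 -0.53, SE 0.09, adjusted p = 0.0182 for Oasl2, and -0.37, SE 0.08, adjusted p = 0.0414 for Irgm2).

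The other 30 members, which did not pass within iPSC, had log2 differences from -0.55 for Bst2, the virion-tethering protein tetherin, to 0.32 for Rsad2, which encodes viperin. Interferon signalling factors were among them. Irf9 gave -0.04 (95% interval -0.32 to 0.24) and Irf7 0.21 (-0.05 to 0.47). Stat2 gave 0.04 with a wide interval (-0.87 to 0.94), its WT iPSC arrays lying far apart at 7.99 and 9.08. The 3 RNA sensors differed by 0.20 (Ddx58), -0.39 (Ifih1, below background in all iPSC) and -0.01 (Dhx58).

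Calls in both comparisons depended on the arrays used, for all genes as for the members. Without KO iPSC replicate 1, and again without KO iPSC replicate 2, a single KO iPSC array was left and no member passed in limma in either comparison. The share of all genes called against WT pluripotent cells was 1.54% and 1.82% in these settings. The log2 difference of Irf1 was -1.04 and -0.98 there, against -1.01 with all arrays, and that of Parp14 -0.62 and -0.60, against -0.61. Without WT iPSC replicate 1, the array with more fibroblast signal, 3 members passed against WT pluripotent cells (Irf1, Parp14 and Bst2) and 8 against WT iPSC, where 18.8% and 27.0% of all genes did. Leaving out the other WT iPSC array gave 1 (Irgm1) and 12, with 10.1% and 25.3% of all genes. Irf1 did not pass against WT pluripotent cells there (log2 -1.08, adjusted p = 0.0624). Against WT iPSC, Stat2 was called lower in the first of these 2 settings and higher in the second. Without WT ESC 4 members passed (Irf1, Parp14, Oasl2 and Irgm2), with 16.5% of all genes. That fit is the same test as KO against WT iPSC above and not a second result. Fibroblast markers moved in these comparisons too: 5 of 21 fell and 0 rose against WT pluripotent cells (median -1.21), where 8.81% of all genes fell and 6.89% rose. Summed over the list, their linear intensity was 8455 and 8660 in KO iPSC, against 17970 in WT ESC and 31141 and 15253 in WT iPSC. Postn, Lox, Dcn, Lum and Twist2 lay below background on both KO arrays, and all of these but Lox also on WT iPSC replicate 2. Of the 21 markers 15 and 16 lay above background in KO iPSC, against 19 in WT ESC and 20 and 15 in WT iPSC. Of 15 macrophage and haematopoietic markers 2 rose (Laptm5 and Spi1) and 0 fell, with 9 and 8 above background in KO iPSC, against 10 in WT ESC and 10 and 11 in WT iPSC, and Ptprc, Adgre1, Cd14 and Cd52 below it on all 5 arrays. Of 16 pluripotency markers 3 fell and 1 rose against WT pluripotent cells, with Fgf4 4.54-fold lower in KO iPSC (log2 -2.18, SE 0.12, adjusted p = 0.000716 in limma). The part of these 3 marker lists in the results was not tested.

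**Figure D2:**
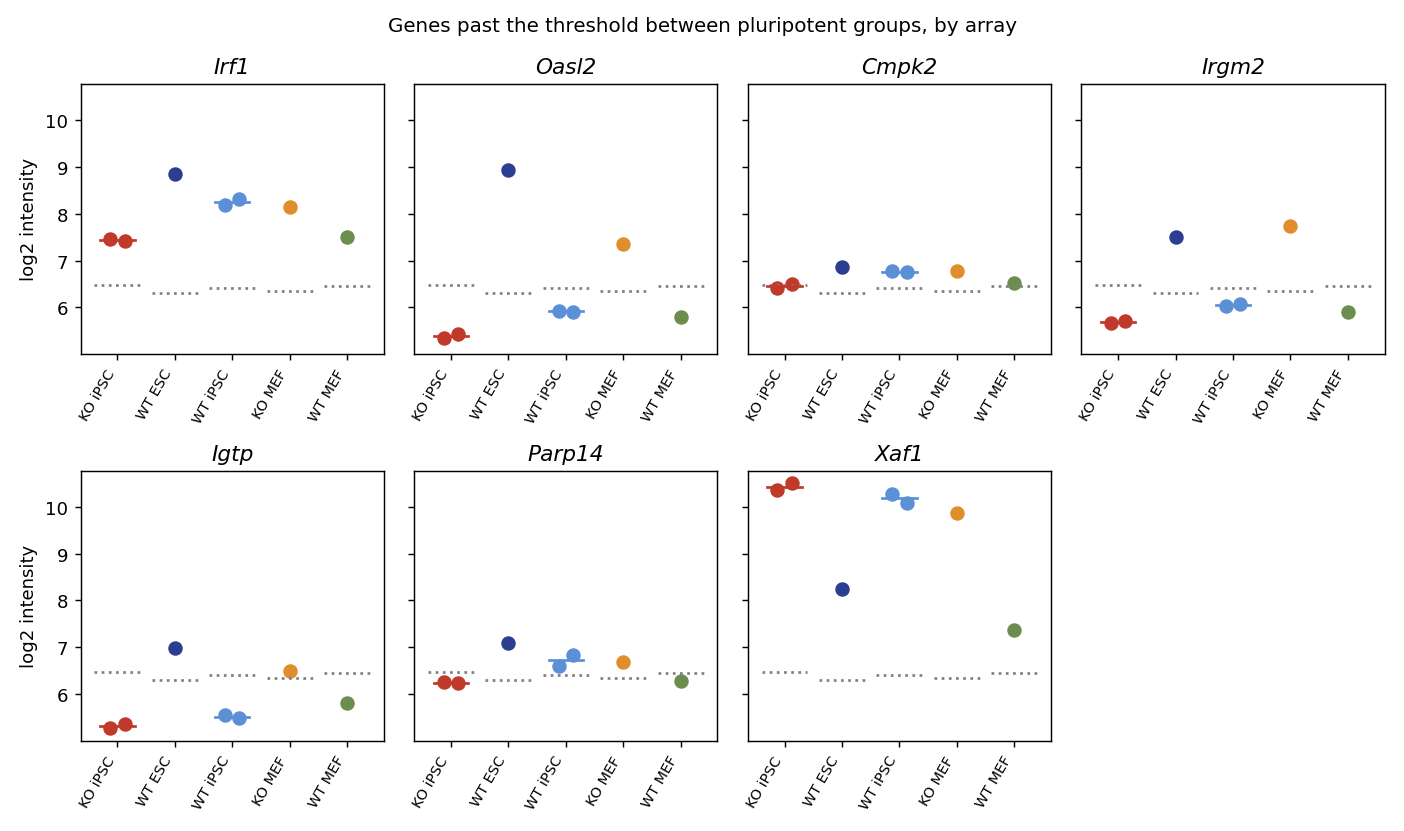
Log2 intensity (vertical axis) of the 7 genes past the threshold in a comparison of pluripotent groups, with 1 point per array, group means as coloured lines where a group has 2 arrays, and the group's mean background yardstick as a dotted line. Irf1 is lowest in KO iPSC at 7.47 and 7.41, and Oasl2, Irgm2 and Igtp are above background in WT ESC and KO MEF and below it in KO iPSC, WT iPSC and WT MEF.

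Other genes of the pathway were counted in the same way, in the comparison that called 6.89% of all genes higher and 8.81% lower in KO iPSC. Of 13 receptor and JAK-STAT genes, 1 was higher and 2 lower in KO iPSC than in WT pluripotent cells. The receptor subunit Ifnar2 stood at 8.23 and 8.49 in KO iPSC, against 9.62 in WT ESC and 9.59 and 9.73 in WT iPSC, a 2.43-fold fall (log2 -1.28, SE 0.11, adjusted p = 0.00222). The phosphatase Ptpn6 fell as well (log2 -0.66) and the kinase Jak2 rose (0.57).

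Among 34 other interferon-induced genes, 6 were lower and 1 higher, where 8.81% of all genes were lower and 6.89% higher (15.7% in all). Tor3a (log2 -1.18, SE 0.14) and the ADP-ribosyltransferase Parp12 (-1.13, SE 0.21) fell, as did the synthetase gene Oas1g (at least 1.73-fold). Its relative Oas1b was called lower as well, but was too dim for a fold (fitted log2 -0.79). Oas1 genes form a cluster of close relatives on chromosome 5, and how far their probe sets tell them apart was not tested. Of 13 genes of MHC class I presentation, 2 fell and 0 rose, beside the same shares of all genes. The immunoproteasome subunit Psmb10 stood at 7.29 and 7.51 in KO iPSC, against 9.96 in WT ESC and 8.80 and 9.45 in WT iPSC (4.01-fold lower, log2 -2.0, SE 0.33, adjusted p = 0.0142), and the heavy chain H2-K1 fell 2.07-fold (log2 -1.05, SE 0.24). The immunoproteasome genes among the members, Psmb8 (-0.01) and Psmb9 (0.05), did not pass.

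Of 17 sensing and adaptor genes, 2 rose and 2 fell, where 6.89% of all genes rose and 8.81% fell. The kinase Tbk1 (0.74) and the RNA editor Adar (0.42) rose, and the dNTP hydrolase Samhd1 (-0.72) and Irf3 (-0.47) fell. The 11 interferon genes had a median of 0.12 against WT pluripotent cells. Ifnb1 lay between 4.30 and 4.60 over all 7 arrays and was below background on each, as were Ifna2, Ifna11, Ifnab, Ifne and Ifnk. Ifna1, Ifna4, Ifnl2 and Ifnl3 lay above background on all 7 arrays with ranges of 9.10 to 9.64, 8.56 to 9.22, 8.74 to 9.05 and 7.70 to 8.32. Several interferon genes have close copies, and the specificity of these probe sets was not tested.

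The 2 kinds of WT pluripotent cells were set against each other next. In WT ESC against WT iPSC, 3 members were higher and 1 lower, 4 of 34 (11.8%), where 36 of all 22180 genes passed (0.162%, with 0.0812% in each direction). There is only 1 WT ESC array, and the test takes its spread from the iPSC pairs. The median of the members was 0.13 and that of all genes -0.02.

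Oasl2 stood at 8.93 in WT ESC, against 5.93 and 5.90 in WT iPSC, which are below background. The difference was at least 5.76-fold (adjusted p = 0.00644). Irgm2, which helps to target vacuoles of intracellular pathogens, stood at 7.51 in WT ESC, against 6.04 and 6.07 in WT iPSC, at least 2.15-fold higher (fitted log2 1.45, SE 0.10, adjusted p = 0.0323). Its neighbour Igtp, of the same GTPase family, stood at 6.98 in WT ESC, against 5.55 and 5.49 in WT iPSC, at least 1.49-fold higher (fitted log2 1.46, SE 0.11, adjusted p = 0.0363). These 2 genes carry the nearly identical promoter stretches printed above. All 3 genes were below background in KO iPSC too, so among the 5 pluripotent arrays only WT ESC had them above background.

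Xaf1 ran the opposite way, at 8.25 in WT ESC, against 10.28 and 10.08 in WT iPSC (3.82-fold lower, log2 -1.93, SE 0.14, adjusted p = 0.0324). KO iPSC, at 10.35 and 10.51, lay with WT iPSC. The other 30 members did not pass, from -0.60 for Trim25 to 0.66 for Bst2. Irf1 gave 0.60 (SE 0.12) with an adjusted p of 0.158, and Parp9, the partner of the E3 ligase DTX3L, 0.53 with 0.214. Since the spread in this fit comes from both iPSC pairs, no member passed in limma when either KO iPSC array was left out. The share of all genes called was then 0.00451%. Leaving out WT iPSC replicate 1 gave 5 and leaving out the other gave 12, both holding the same 4 genes, where 4.04% and 10.3% of all genes passed. The fibroblast markers had a median of -0.08 here, and the macrophage and haematopoietic markers 0.15.

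The MEF pair was set side by side to describe the same genes in the fibroblasts of the 2 genotypes. With 1 array a genotype there is no replicate and no test, and a difference of at least 2-fold between the log2 values as measured was counted, also where 1 side lies below background. By that count 9 members were higher and 1 lower (29.4% of 34), against 2.80% of all genes higher and 1.77% lower (4.56% in all). For 7 of the 9 the measured fold or its lower bound is itself 2 or more, and for Oasl2 and Rtp4 the bound is under 2. The median difference was 0.42 for members and -0.02 for all genes, and 28 of 34 members lay above 0 (82.4%, with 46.4% of all genes above 0).

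Of 4 transcription factors 2 were past 2-fold in KO MEF. Stat2 stood at 9.66 in KO MEF and 8.10 in WT MEF (2.95-fold), Irf9 at 9.46 in KO MEF and 8.31 in WT MEF (2.22-fold). The other two were under 2-fold, with Irf7 at 7.74 in KO MEF and 6.78 in WT MEF, and Irf1 at 8.14 in KO MEF and 7.5 in WT MEF. Stat2 and Irf9 encode proteins of the complex that binds the ISRE.

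Among the effectors Xaf1 had the widest gap, at 9.86 in KO MEF and 7.38 in WT MEF (5.59-fold). The peptide transporter Tap1, which loads MHC class I, stood at 9.32 in KO MEF and 7.90 in WT MEF (2.67-fold). Usp18, the protease that removes ISG15 and restrains the receptor, stood at 8.02 in KO MEF and 6.84 in WT MEF (2.27-fold), and the RNA sensor Ifih1 (MDA5) at 7.69 in KO MEF and 6.57 in WT MEF (2.17-fold).

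A further 3 of the 9 genes were above background in KO MEF and below it in WT MEF. Irgm2 stood at 7.74 in KO MEF and 5.90 in WT MEF, at least 2.43-fold higher, Oasl2 at 7.35 in KO MEF and 5.80 in WT MEF, at least 1.86-fold higher, and the receptor-chaperone gene Rtp4 at 7.16 in KO MEF and 5.81 in WT MEF, at least 1.63-fold higher. The translation inhibitor Ifit1 differed by 0.85, and its relative Ifit2, below background in WT MEF, was at least 1.69-fold higher. Among the members nearest 0 were Rsad2 (0.01), Gbp3 (0.03), Oas2 (0.11), Psmb9 (0.14), Mx2 (0.15), Oas3 (-0.05), Psmb8 (-0.11), Dhx58 (-0.13), Ifit3 (-0.15) and Oasl1 (-0.22).

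Irgm1 alone stood clearly lower, at 6.47 in KO MEF and 8.53 in WT MEF (4.18-fold lower). It was below background on all 5 pluripotent arrays. In WT MEF, where Irgm1 was highest, its relatives Irgm2 and Igtp were below background.

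The other lists were counted in this pair as well, where 2.80% of all genes were past 2-fold higher and 1.77% lower. Of 34 other interferon-induced genes, 7 were past 2-fold higher by the same count in KO MEF and 0 lower (median 0.40). The DNA-binding Ifi204 stood at 7.98 in KO MEF and 5.23 in WT MEF, at least 2.89-fold higher, and Lgals3bp (3.02-fold), Trim21 (2.81-fold) and Oas1b (at least 1.55-fold) were higher as well. Of 13 MHC class I genes, 2 were higher and 0 lower, H2-K1 (2.74-fold) and the TAP-binding Tapbp (2.44-fold). The interferon genes had a median of 0.03 with 0 past 2-fold, and Ifnar2 differed by 0.17.

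The MEF samples also differed in other cell markers. Of all genes 2.80% were at least 2-fold higher and 1.77% lower in KO MEF. Of 21 fibroblast markers 6 were at least 2-fold higher and 0 lower in KO MEF, with the proteoglycans Lum at 10.60 in KO MEF and 5.09 in WT MEF and Dcn at 12.19 in KO MEF and 7.99 in WT MEF. Summed intensity over that list was 109472 in KO MEF and 83096 in WT MEF, and only Lum in WT MEF lay below background. Macrophage and haematopoietic markers ran the other way, with 0 of 15 at least 2-fold higher and 2 lower (Lyz2 at 8.31 in KO MEF and 10.42 in WT MEF, and Tyrobp), 11 of 15 above background in KO MEF and 13 in WT MEF, and a summed intensity of 2542 in KO MEF and 4723 in WT MEF. Ptprc and Cd52 were below background in both, and Adgre1 and Cd14 in KO MEF. The part of cell makeup in the difference was not tested, and with 1 array each it cannot be told apart from genotype.

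**Figure D3:**
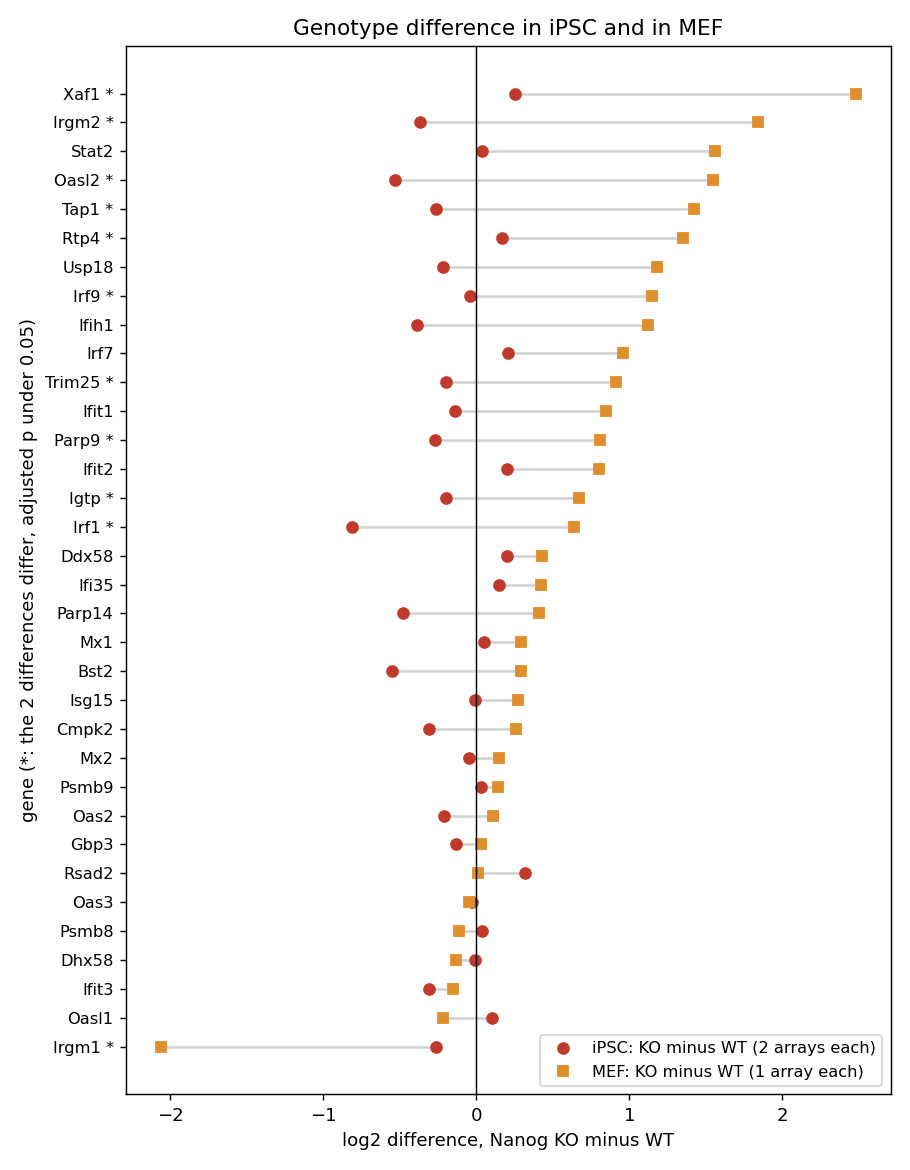
Log2 difference of Nanog KO minus WT (horizontal axis) for each of the 34 genes (rows) in iPSC (circles, 2 arrays each) and in MEF (squares, 1 array each, no test), with a star where limma called the 2 differences different. The MEF squares lie above 0 for 28 of the 34 genes and Irgm1 lies at -2.06, while the iPSC circles lie between -0.81 and 0.32.

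Whether the genotype difference itself depends on the cell type was tested as an interaction in the fit of all 7 arrays, where each MEF array is assumed to vary like the iPSC pairs. The KO minus WT difference was lower in iPSC than in MEF for 10 members and higher for 1 (32.4% of 34), whereas 5.48% of all genes were lower and 3.07% higher (8.55% in all). The medians were -0.67 for members and 0.04 for all genes. This test uses the same MEF values as the preceding paragraphs, with no replicate of either MEF sample. For Irgm2, Oasl2, Igtp and Rtp4 the KO iPSC, WT iPSC and WT MEF arrays all lie below background, so their gaps are fitted values and not measured sizes, and for Irgm1 this holds of the iPSC arrays.

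For Irgm2 the fitted difference was -0.37 in iPSC and 1.84 in MEF, a gap of -2.21 (SE 0.14, adjusted p = 0.00484). Xaf1 gave 0.25 in iPSC and 2.48 in MEF (gap -2.24, SE 0.20, adjusted p = 0.00855), Oasl2 -0.53 in iPSC and 1.55 in MEF (gap -2.08, SE 0.15, adjusted p = 0.00602) and Tap1 -0.26 in iPSC and 1.42 in MEF (gap -1.67, SE 0.18, adjusted p = 0.0128). Irf1 gave -0.81 in iPSC and 0.64 in MEF (gap -1.45, SE 0.16, adjusted p = 0.0135). Irf9, Rtp4, Trim25, Parp9 and Igtp passed with gaps from -1.19 to -0.87, and Irgm1, at -0.26 in iPSC and -2.06 in MEF, with a gap of 1.80 (SE 0.26, adjusted p = 0.0235).

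Stat2 had a gap of -1.53 but did not pass (SE 0.61, adjusted p = 0.206), its WT iPSC arrays being 1.09 apart. Without KO iPSC replicate 1 no member passed in limma, and without KO iPSC replicate 2 Irgm2 alone passed. Leaving out WT iPSC replicate 1 gave 20 and leaving out the other gave 18, and each of these held the same 11 genes. The share of all genes called moved with these counts, from 0.401% and 0.712% without a KO iPSC array to 22.6% and 21.8% without a WT iPSC array.

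Finally iPSC were set against MEF with genotype as a covariate (4 arrays against 2), to describe the members by cell type. In this fit 5 of 34 members passed, 1 higher and 4 lower in iPSC (14.7%), where 16.0% of all genes were higher and 14.7% lower (30.7% in all). It has no interaction term, so a genotype difference that depends on cell type adds to its spread. Such a dependence was called above for 32.4% of members and 8.55% of all genes. The mean of the within-genotype contrasts, given below, allows for it and called similar shares of members and of all genes. The low share in the additive fit is therefore not read as a trait of the members. Their median was -0.14, against 0.03 for all genes.

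Trim25 was the one higher in iPSC, at 10.40 and 10.49 in KO iPSC and 10.51 and 10.79 in WT iPSC, against 9.57 in KO MEF and 8.66 in WT MEF (2.7-fold, log2 1.43, SE 0.27, adjusted p = 0.0128). Ifi35, a regulator of interferon signalling, was lower, at 7.43 and 7.59 in KO iPSC and 7.59 and 7.12 in WT iPSC, against 8.92 in KO MEF and 8.50 in WT MEF (2.43-fold lower, log2 -1.28, SE 0.16, adjusted p = 0.00422). A second probe set of Ifi35 was dimmer and also lower in iPSC, between 6.67 and 6.98, against 7.37 in KO MEF and 7.25 in WT MEF.

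Ifit2 lay below background on all 4 iPSC arrays, between 5.22 and 5.60, against 7.21 in KO MEF and 6.41 in WT MEF, which is just below background too (at least 1.3-fold lower, adjusted p = 0.00355). Irgm1 lay between 5.29 and 5.79 in iPSC, against 6.47 in KO MEF and 8.53 in WT MEF (at least 2.09-fold lower, adjusted p = 0.0172). Igtp lay between 5.27 and 5.55 in iPSC, against 6.49 in KO MEF and 5.82 in WT MEF, too dim for a fold (fitted log2 -0.73, SE 0.21, adjusted p = 0.0489).

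The count turned on which MEF array was used. Without WT MEF 17 of 34 members passed (with 35.9% of all genes), 15 of them lower in iPSC, and the median was -0.55. Without KO MEF 6 passed (17.6%, with 32.6% of all genes), 3 in each direction, and the median was 0.07. Irf1 was called lower in iPSC in the first of these and higher in the second. With the mean of the within-genotype contrasts 15 passed (44.1%, with 42.9% of all genes). The settings that leave out a MEF array were chosen after seeing the data. Igtp did not pass when KO MEF or any one of the 4 iPSC arrays was left out (adjusted p from 0.0707 to 0.137). Irgm1 did not pass without WT iPSC replicate 1, where Ifih1 and Ifit1 did.

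**Figure D4:**
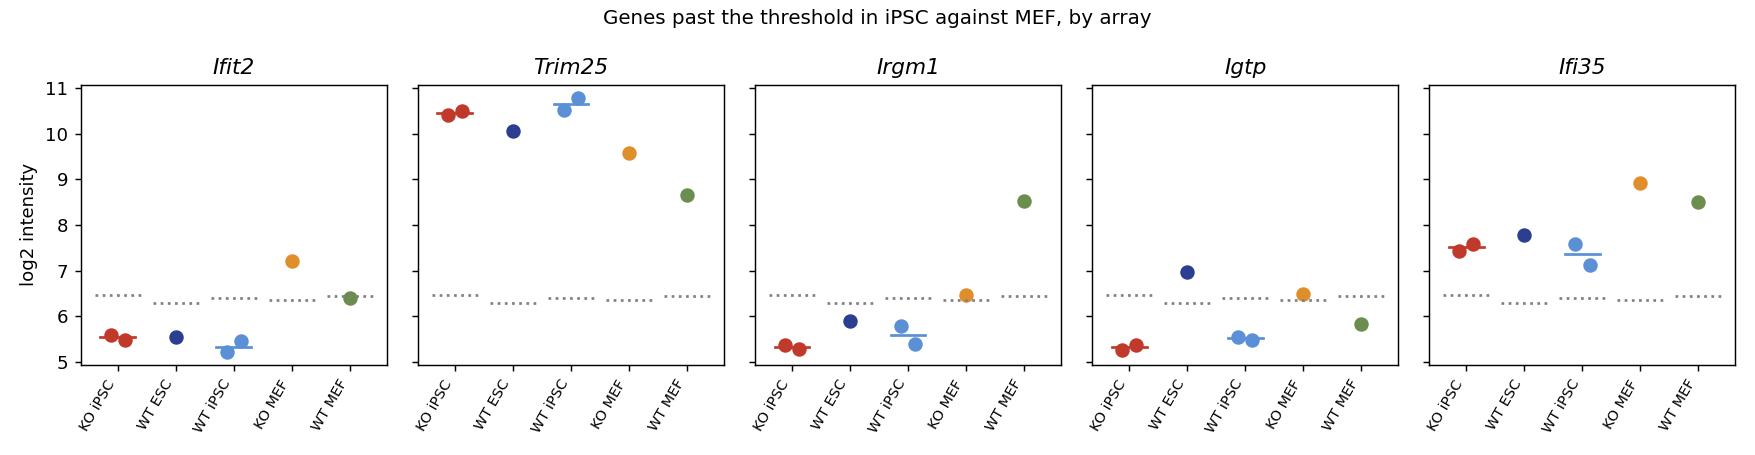
Log2 intensity (vertical axis) of the 5 genes past the threshold in iPSC against MEF, with 1 point per array, group means as coloured lines where a group has 2 arrays, and the background yardstick as a dotted line. Trim25 is above 10 in iPSC, Ifi35 is higher in both MEF arrays, and Irgm1 is above 8 only in WT MEF.

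Between the cell types 30.7% of all genes passed, 16.0% higher and 14.7% lower in iPSC. Among the upstream genes, 12 of 13 receptor and JAK-STAT genes passed. Of these, 8 were lower and 4 higher in iPSC than in MEF. Il10rb, the shared subunit of the interferon lambda receptor, was 6.08-fold lower in iPSC (log2 -2.60, SE 0.20), and both subunits of the interferon gamma receptor were lower, Ifngr2 by 4.68-fold (-2.23) and Ifngr1 by 4.54-fold (-2.18). Ifnar2 was 3.69-fold lower (-1.88, SE 0.34). Of 17 sensing and adaptor genes, 5 were lower and 2 higher, with the DNA-sensing adaptor Sting1 12-fold lower in iPSC (-3.58, SE 0.28) and the inflammasome sensor Aim2 at least 12.6-fold higher, at 9.91 to 10.21 in iPSC, against 5.98 in KO MEF and 5.99 in WT MEF. Among 13 MHC class I genes, 5 were lower and 0 higher, including B2m, the light chain of MHC class I, at 3.60-fold (-1.85, SE 0.26).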

How the data were processed

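The authors' deposited table gives a linear intensity for each of 33649 probe sets. Per the submitters' processing notes, the tools were RMA and Affymetrix Expression Console 1.3.0.187. The plan had assumed log2 values, so the log2 was taken here with no further normalization. The platform annotation gives 1 symbol to 23521 probe sets, several to 1814 and does not list 8314, and the probe set with the highest mean stood for a gene (22180 genes). No column was left unmapped (0). Precision is limited by the number of arrays.

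Genes were tested two-sided in R 4.3.3 by limma 3.58.1 (moderated test, Benjamini-Hochberg over all genes, threshold 0.05), which was tested on simulated data. Residual degrees of freedom were 3 against WT pluripotent cells and in iPSC against MEF, and 2 in the fit of all 7 arrays. Comparisons share arrays, so their gene sets are not compared.

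The members, lists, tests and alternatives were chosen with earlier results of these data known. Named genes are the members past the threshold or past 2-fold in the MEF pair, with a few others as examples, and up to 4 genes of each other list. Promoters came from RefSeq (GRCm38.p6). Alternatives were the centring, normalization, filter, offset, probe set rule, replicate block and each array left out.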

Additional observations from a re-analysis of the deposited data

Results flagged for a closer look

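In 11 members the KO minus WT difference itself differed between iPSC and MEF by the interaction test of limma (adjusted p under 0.05), which rests on 1 MEF array per genotype. Taken as the difference in iPSC less that in MEF on the log2 scale, the gap was -2.24 for Xaf1, -2.21 for Irgm2, -2.08 for Oasl2, -1.67 for Tap1, -1.45 for Irf1, -1.19 for Irf9, -1.17 for Rtp4, -1.11 for Trim25, -1.08 for Parp9, -0.87 for Igtp and 1.80 for Irgm1. No group had the 4 samples needed to look for a single sample far from the rest. For Irgm2, Oasl2, Igtp and Rtp4 these are fitted values, since KO iPSC, WT iPSC and WT MEF lie below background.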

How the results depend on the processing

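Counts of members past the threshold moved most with the arrays used. With each array left out in turn the count ran from 0 to 4 in KO iPSC against WT pluripotent cells, from 0 to 12 in KO against WT iPSC, from 0 to 12 in WT ESC against WT iPSC, from 0 to 20 for the interaction and from 4 to 17 in iPSC against MEF. The share of all genes called moved in these settings too. The 4 against WT pluripotent cells came without WT ESC, which is the same test as KO against WT iPSC with all arrays. A strict filter on dim genes, which leaves 9 of the 34 members, gave 1, 1, 0, 6 and 3 in the same order of comparisons. The shares of all genes called there were 29.2%, 30.7%, 0.0271%, 13.8% and 53.6%. In the MEF pair 4 members were past 2-fold under this filter, with 6.39% of all genes. With log2 of the value plus 50 the counts were 1 against WT pluripotent cells (15.7% of all genes) and 2 against WT iPSC (16.6%). They were 1 in WT ESC (0.0225%), 10 for the interaction (8.70%) and 3 in iPSC against MEF (29.3%). In the MEF pair 7 members were past 2-fold with that offset, with 3.19% of all genes. The mean of the within-genotype contrasts in the fit of all 7 arrays gave 15 in iPSC against MEF. The labels give KO and WT iPSC the same replicate numbers without saying whether same-numbered arrays were paired. The deviations of same-numbered arrays correlated at 0.021 across the brighter genes. That value cannot settle the pairing, since the KO iPSC arrays differed by over 2-fold in 4 genes and the WT iPSC arrays in 350. With the replicate number as a block 2 members (Irf1 and Oasl2) passed in KO against WT iPSC, with 14.8% of all genes. Against WT pluripotent cells WT ESC is alone in its block and adds nothing, so that fit is the same test and not a second result. Median centring, quantile normalization, the trend and robust fit, the mean of all probe sets and a milder filter on dim genes (25 members left) kept all counts within 1.5 times. A like count can hold other genes. In iPSC against MEF the milder filter called 5 members, of which 2 (Trim25 and Ifi35) were shared with the main fit. Ifit2, Irgm1 and Igtp were removed as dim, and Xaf1, Ifih1 and Ifit1 passed there. No gene called with all arrays changed sign under an alternative, but 2 genes not called there passed in opposite directions when different arrays were left out, Stat2 in KO against WT iPSC and Irf1 in iPSC against MEF. Of the other values, 333 were unchanged, meaning that a gene still passed with its sign or a median moved by less than the replicate spread. Another 75 were genes that kept their sign but no longer passed, and 10 were medians that moved by more than that spread. Genes removed by a filter have no value in that setting and are not in these counts. The causes were not tested.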
